A study of Homo sapiens with 6 samples.

Results

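The endoplasmic reticulum (ER) is where secreted and membrane proteins fold. The genes described here encode its folding enzymes and the machinery of ER-associated degradation (ERAD), which removes proteins that fail to fold. The list holds 39 genes and groups genes by function. No measured value is a stated criterion for a gene's place on the list, but the list was proposed with earlier results of these data known. A gene was taken as measured where the array annotation listed it alone on a probe set, and the brightest probe set stood for it. That gave 37 measured members among 18417 measured genes. PDIA3 and TXNDC5, both disulfide enzymes, appeared only on probe sets that list several genes and were left out.

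MDA-MB-231 is a cell line from a human breast tumour of the triple-negative kind, and 6 Affymetrix arrays were hybridised with its RNA. Treated cultures received YW3-56, known as an inhibitor of peptidylarginine deiminases, at 10 µM for 8 h (3 arrays), and the controls received the vehicle DMSO (3 arrays). All cultures were in DMEM with 10% serum and were treated at about 70% confluence. The labels call the replicates biological and give no separate time for the vehicle.

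Values are RMA expression values on the log2 scale, so that a difference of 1 is a doubling, and only 3 arrays per group limit the precision. Over genes, any pair of arrays of the same group correlated at 0.990 or more, and pairs from different groups at 0.980 to 0.985. YW3-56 replicate 1 and DMSO replicate 1 stood apart on the second principal component, with scores of 9.77 and 22.2 where the remaining 4 arrays were negative. By mean level among all measured genes, 4 mesenchymal markers lay between the 37.8 (SPARC) and 99.7 (VIM) percentiles. The 6 luminal markers lay between the 8.88 (PGR) and 65.5 (ERBB2) percentiles, with ESR1 at 22.4, and GATA3 was called lower in YW3-56 (-0.37 ± 0.09, adjusted p = 0.0224 in limma). The blood, endothelial and liver markers PTPRC, PECAM1 and ALB lay between 3.34 and 13.8. In RNA from a whole culture, fewer cells and less RNA per cell cannot be told apart.

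In the ER, HSP70 and HSP90 family chaperones hold unfolded chains, protein disulfide isomerases form and shuffle disulfide bonds, and lectins read the sugar tree attached to new proteins. A protein that fails repeatedly is handed by degradation lectins to a membrane complex around the ligase SYVN1. It is marked with ubiquitin and passed to the cytosol for the proteasome. When unfolded proteins accumulate, the unfolded protein response raises many of these genes through the transcription factors ATF6, XBP1 and ATF4.

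In cells treated with YW3-56, 24 of the 37 measured members were called higher and 1 was called lower, at an adjusted p under 0.05 in limma (Benjamini-Hochberg over all genes). Adjusted p-values of the called members ran from 0.000129 for HSPA5 to 0.0459 for DERL3. Over all measured genes, 9.84% were called higher, 11.5% lower and 21.4% in either direction. The counts moved with single arrays left out. Of all genes, 1812 were called higher and 2121 lower, against 1158 and 1206 without YW3-56 replicate 3, where 20 members were called higher, and 1309 were called lower without YW3-56 replicate 2. The median log2 fold change of the members was 0.36, against -0.05 over all genes. Calls with at least a 2-fold rise covered 5 members, HERPUD1, ERO1B, PDIA4, HSPA5 and SEL1L, while 0.896% of all genes met that rule. The 3 YW3-56 values lay above all DMSO values in 29 members and below them in 2. Over all genes, 15.5% lay above and 21.4% below. With both arrays numbered 1 left out, 23 members were called higher and 1 lower.

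The rises were uneven between roles. Among HSP70 and HSP90 chaperones and their helpers, 7 of 8 rose and the median log2 fold change was 0.82. Disulfide enzymes rose in 4 of 7 measured members, with a median of 0.45. The folding lectins and their glucosyltransferases rose in 1 of 4, with a median of 0.16, and neither of the 2 prolyl isomerases passed. On the degradation side, 4 of 5 genes in the class of lectins and EDEM proteins rose (median 0.30). So did 7 of 8 genes of the membrane complex (median 0.41). Of 3 genes of ubiquitin conjugation, 1 rose and 1 fell (median -0.13). In all, 12 of 21 folding genes rose and 0 fell, and 12 of 16 degradation genes rose and 1 fell. No test of the difference between roles was run, since the members share arrays and were not drawn at random.

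**Figure D1:**
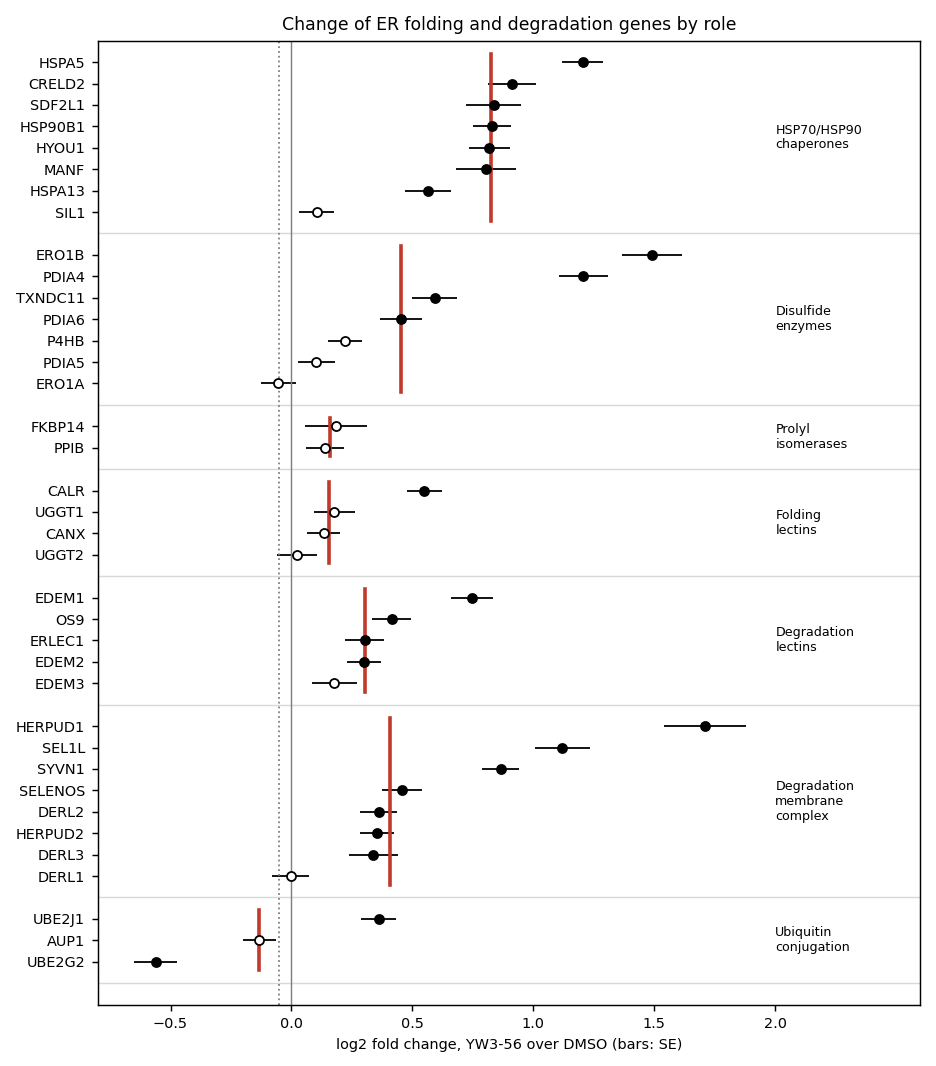
Log2 fold change of each of the 37 measured members, YW3-56 over DMSO, with SE bars (n = 3 arrays per group). Filled points passed the adjusted p, open points did not, red lines are class medians, and the dotted line is the median of all genes at -0.05. HERPUD1, ERO1B, PDIA4, HSPA5 and SEL1L lie beyond 1, and UBE2G2 is the filled point below 0.

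Promoter sequences are shown because the genes that moved together include known carriers of stress response motifs. RefSeq windows (GRCh38.p14) from 250 bases before to 50 after a gene's start were found for 34 of the 37 members, with none for FKBP14, DERL1 and DERL3. PDIA4, PDIA6 and CANX had more than 1 window, and a gene counted as a carrier if any of its windows held the motif. Motifs were searched as exact letters on both strands. The ER stress element, which reads CCAAT, then any 9 bases, then CCACG, is known to be bound by NF-Y at its first letters and by ATF6 at its last. The ER stress element II, which reads ATTGG, any base, then CCACG, is a compact form that was described in HERPUD1. Both contain the CCAAT box, read on either strand, so these motifs overlap.

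The ER stress element was present in 7 of 34 members (20.6%), against 19 of 14237 measured genes with a window (0.133%) and 27 of all 35116 windows (0.0769%). The ER stress element II was present in 3 of 34 members (8.82%), against 17 of the 14237 genes (0.119%). Together they marked 10 members, of which 9 rose and CANX did not pass. The 23 members that rose and have a window thus include 14 without an exact match to either element, PDIA4 and SEL1L among them. Variants of the motifs and sites outside the windows were not searched. The list was drawn up by function, and such elements were first studied in genes of this kind, so the shares describe the list and are no separate evidence. The matches follow, each written in the direction of the motif with its fixed letters in capitals, with its site and strand and its position relative to the gene start.
HSPA5 (chr9:125241391-125241409, minus strand, -66 to -48): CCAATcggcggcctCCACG
HSP90B1 (chr12:103930216-103930234, plus strand, -194 to -176): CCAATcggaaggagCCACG
HSP90B1 (chr12:103930321-103930339, minus strand, -89 to -71): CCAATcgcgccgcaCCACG
PDIA6 (chr2:10812853-10812871, minus strand, -86 to -68): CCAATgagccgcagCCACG
ERO1B (chr1:236282183-236282201, plus strand, -243 to -225): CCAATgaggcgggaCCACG
CALR (chr19:12938384-12938402, minus strand, -225 to -207): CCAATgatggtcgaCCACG
CANX (chr5:179698778-179698796, plus strand, -151 to -133): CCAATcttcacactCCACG
CRELD2 (chr22:49918554-49918572, minus strand, -80 to -62): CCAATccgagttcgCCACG
HYOU1 (chr11:119057380-119057390, plus strand, -185 to -175): ATTGGaCCACG
HYOU1 (chr11:119057274-119057284, plus strand, -79 to -69): ATTGGaCCACG
SDF2L1 (chr22:21642114-21642124, minus strand, -188 to -178): ATTGGtCCACG
HERPUD1 (chr16:56932025-56932035, plus strand, -117 to -107): ATTGGgCCACG

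A match did not always go with a call. CANX holds a full element at the same site in 3 of its 4 windows but its change of 0.13 ± 0.07 on the log2 scale missed the threshold (adjusted p = 0.243). A trended and robust prior called CANX higher, with an adjusted p of 0.0239. PDIA6 holds one in the second of its windows and rose by 0.45 ± 0.09. HSP90B1 has a pair of elements on opposite strands, and HYOU1 has a pair of the compact form.

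Outside the list, 26 measured genes carried either element. Of these, 7 were called higher and 2 lower, against 9.84% and 11.5% of all measured genes. Those called higher were XBP1, a transcription factor of the unfolded protein response, FICD, an enzyme that modifies BiP, NUCB1, CAMTA1, RAD9A, TRIM5 and ALG12. Those called lower were NAV2 (-0.70) and RUVBL2 (-0.27). The remaining carriers did not pass, SERP1 among them (0.27, limma adjusted p = 0.0763). The shares were not tested, and XBP1 belongs to the same response as the list, so these carriers are no separate evidence either. The ALG12 match is the same site as that of CRELD2, its divergent neighbour. FICD rose by 1.56 and XBP1 by 1.25 on the log2 scale.

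The unfolded protein response element core, TGACGTGG, was found in HYOU1, TXNDC11 and UBE2J1, 8.82% of members against 1.12% of measured genes with a window. All of these rose, as did 23 of the 34 members with a window, and the HYOU1 core overlaps one of its compact ER stress elements. Outside the list, 156 measured genes held this core, of which 26 were called higher and 16 lower. Of all measured genes, 9.84% were called higher and 11.5% lower. The amino acid response element core TGATGNAA, a site type bound by ATF4, was found in HERPUD1 only, 2.94% of members against 3.59% of genes. Of 510 measured genes outside the list with that core, 58 were called higher and 33 lower. A plain CCAAT box was found in 21 members (61.8%), against 42.2% of genes. Of 5991 measured genes outside the list with a CCAAT box, 744 were called higher and 697 lower.

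**Figure D2:**
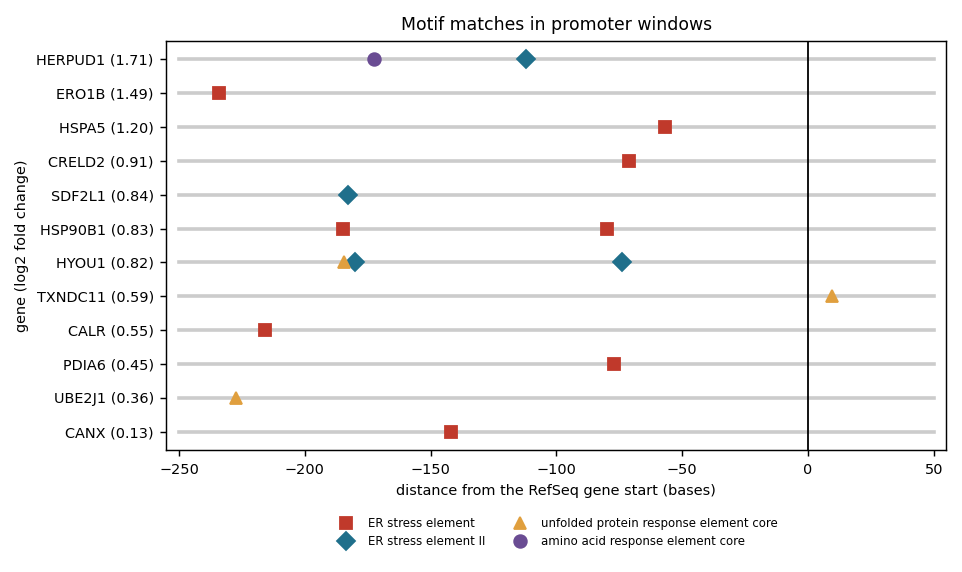
Position of motif matches in the promoter windows of the 12 members that hold one, ordered by log2 fold change (in parentheses), with the gene start as a vertical line; the first window with a match is drawn. ER stress elements lie between -243 and -48, and HERPUD1 is the member with both a compact ER stress element and an amino acid response element core.

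The windows of the 3 members with the largest rises and of HSPA5 are given in full, in the direction of transcription. Capitals mark matches, on either strand, to the 4 motifs other than the plain CCAAT box. In HERPUD1, the amino acid response element core lies upstream of the compact ER stress element. Of the windows of PDIA4 the first is shown. It has no capitals although the rise of PDIA4 was close to that of HSPA5, and it holds 3 CCAAT boxes.
HERPUD1 (chr16:56931892-56932191, plus strand): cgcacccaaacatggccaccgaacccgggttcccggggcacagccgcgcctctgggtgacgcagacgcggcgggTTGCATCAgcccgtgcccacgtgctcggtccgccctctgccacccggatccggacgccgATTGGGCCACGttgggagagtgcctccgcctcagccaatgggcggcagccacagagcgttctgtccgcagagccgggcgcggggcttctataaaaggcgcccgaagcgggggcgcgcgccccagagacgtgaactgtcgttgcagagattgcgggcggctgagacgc
ERO1B (chr1:236281909-236282208, minus strand): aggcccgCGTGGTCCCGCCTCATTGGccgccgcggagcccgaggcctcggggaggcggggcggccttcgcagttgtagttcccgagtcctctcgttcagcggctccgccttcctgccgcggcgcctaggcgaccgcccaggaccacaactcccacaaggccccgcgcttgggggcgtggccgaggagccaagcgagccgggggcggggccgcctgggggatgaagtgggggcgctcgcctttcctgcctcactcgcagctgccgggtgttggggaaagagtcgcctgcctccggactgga
PDIA4 (chr7:149028441-149028740, minus strand): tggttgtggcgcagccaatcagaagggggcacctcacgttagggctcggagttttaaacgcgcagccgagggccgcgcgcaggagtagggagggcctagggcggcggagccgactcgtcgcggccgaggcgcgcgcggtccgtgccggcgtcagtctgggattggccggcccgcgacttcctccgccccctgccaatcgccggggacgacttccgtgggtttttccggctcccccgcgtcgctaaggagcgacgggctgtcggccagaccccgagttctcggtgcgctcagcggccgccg
HSPA5 (chr9:125241294-125241593, minus strand): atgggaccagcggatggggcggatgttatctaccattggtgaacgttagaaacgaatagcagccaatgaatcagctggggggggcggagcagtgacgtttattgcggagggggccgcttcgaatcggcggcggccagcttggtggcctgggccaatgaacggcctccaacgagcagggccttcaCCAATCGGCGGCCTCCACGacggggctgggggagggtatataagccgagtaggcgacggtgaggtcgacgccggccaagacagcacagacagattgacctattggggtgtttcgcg

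HSPA5, which encodes BiP, the main HSP70 chaperone of the ER, is represented by probe set 8164165. It had 13.84, 13.73 and 13.71 in YW3-56 arrays, against 12.43, 12.65 and 12.59 in DMSO arrays. The groups were far apart, and BiP transcripts were 2.30-fold higher (log2 fold change 1.20 ± 0.08 SE, limma adjusted p = 0.000129). HSP90B1, the HSP90 of the ER also called GRP94, had 13.66, 13.52 and 13.53 in YW3-56, against 12.67, 12.74 and 12.82 in DMSO. It was 1.78-fold higher, with no overlap of the arrays.

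The helpers of BiP differed in their calls. HYOU1, a large HSP70-related protein that frees nucleotide from BiP, had 12.07, 11.84 and 11.93 in YW3-56 and 11.15, 11.06 and 11.17 in DMSO, a rise of 0.82 ± 0.08. SIL1, the other nucleotide exchange factor of BiP on the list, had 8.54, 8.57 and 8.48 in YW3-56 and 8.45, 8.46 and 8.37 in DMSO. Its arrays did not overlap, but the difference of 0.10 ± 0.07 did not pass (adjusted p = 0.384, 95% interval from -0.06 to 0.27). HSPA13, an HSP70 of the ER and microsomes, had 10.81, 10.97 and 11.08 in YW3-56 and 10.32, 10.34 and 10.50 in DMSO, a rise of 0.56 ± 0.09.

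Small secreted or lumenal proteins of the stressed ER rose by amounts close to HSP90B1. CRELD2, known for its induction by ER stress, had 9.96, 9.62 and 9.82 in YW3-56, against 8.97, 8.80 and 8.89 in DMSO (0.91 ± 0.10). SDF2L1, a lumenal partner of BiP, had 9.25, 8.87 and 9.11 in YW3-56, against 8.16, 8.17 and 8.39 in DMSO (0.84 ± 0.11). MANF, a secreted protein that binds BiP, had 11.34, 11.27 and 11.44 in YW3-56, against 10.40, 10.41 and 10.83 in DMSO (0.80 ± 0.12). DMSO replicate 3 was the highest of the control arrays for SDF2L1 and MANF and still lay below every YW3-56 array.

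Disulfide bonds in the ER are made by ERO1 oxidases, which pass oxidising power to protein disulfide isomerases. ERO1B, one of the oxidases, had the largest rise among folding genes. It had 9.40, 9.08 and 9.08 in YW3-56, against 7.72, 7.50 and 7.86 in DMSO, and was 2.81-fold higher (1.49 ± 0.12, adjusted p = 0.000244). ERO1A, the widely expressed oxidase, had 11.78, 11.71 and 11.73 in YW3-56, against 11.86, 11.74 and 11.79 in DMSO. Its groups overlapped, and the change of -0.05 ± 0.07 did not pass (95% interval from -0.22 to 0.11). The difference of the log2 values of ERO1A and ERO1B ran from 2.39 to 2.66 in YW3-56 and from 3.94 to 4.24 in DMSO, so the ERO1A change was lower by 1.55 ± 0.12 SE on the log2 scale.

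The isomerases ranged widely. PDIA4, also called ERp72, had 12.10, 11.81 and 11.81 in YW3-56, against 10.59, 10.75 and 10.75 in DMSO, and was 2.31-fold higher. P4HB, the founding protein disulfide isomerase, had 13.07, 13.07 and 13.06 in YW3-56, against 12.82, 12.81 and 12.91 in DMSO. The P4HB arrays did not overlap, but its difference of 0.22 ± 0.07 lay just outside the threshold (adjusted p = 0.0548). Its second probe set differed by 0.25 with an adjusted p of 0.0328 when all single-symbol probe sets were tested, and 6 alternative settings called P4HB higher, with adjusted p from 0.00207 to 0.0443.

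TXNDC11, an isomerase-like protein known as a partner of EDEM proteins, had 9.39, 9.24 and 9.53 in YW3-56, against 8.86, 8.71 and 8.82 in DMSO (0.59 ± 0.09). PDIA6, also called P5, rose by 0.45 ± 0.09, with YW3-56 values from 11.76 to 12.00 and DMSO values from 11.34 to 11.49. PDIA5 did not pass (0.10 ± 0.08, adjusted p = 0.433), and its groups overlapped. The rises of PDIA4 and ERO1B were the largest among the measured disulfide enzymes, and the change of PDIA4 exceeded that of P4HB by 0.98 ± 0.11.

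**Figure D3:**
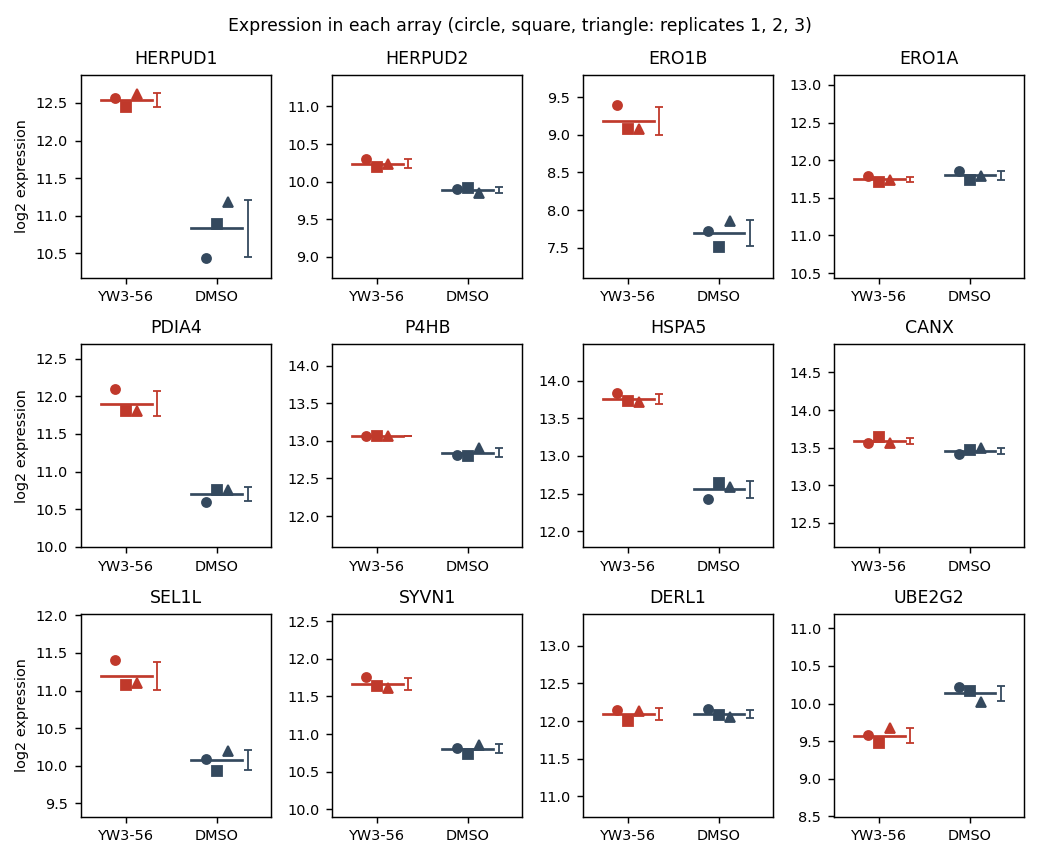
Log2 expression in each array for 12 members, YW3-56 left and DMSO right, with the group mean as a line and the SD as a bar; every panel spans the same range of log2 units. HERPUD1, ERO1B, PDIA4, HSPA5, SEL1L and SYVN1 separate widely, ERO1A and DERL1 overlap, and UBE2G2 is lower in YW3-56.

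The calnexin cycle, in which lectins hold glycoproteins while a glucosyltransferase tests their fold, changed least among the folding roles with more than 2 genes. CALR, the lumenal lectin calreticulin, had 12.38, 12.26 and 12.31 in YW3-56, against 11.79, 11.75 and 11.76 in DMSO. It was the member of this class that rose, by 0.55 ± 0.07 (adjusted p = 0.00132). CANX, the membrane-bound lectin calnexin, had 13.57, 13.64 and 13.56 in YW3-56, against 13.41, 13.46 and 13.49 in DMSO. The arrays of CANX did not overlap, and its 95% interval from -0.03 to 0.29 lies below that of CALR, which ran from 0.39 to 0.71.

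UGGT1, the folding sensor that adds glucose back to unfolded glycoproteins, had 11.02, 10.85 and 10.90 in YW3-56, against 10.85, 10.67 and 10.71 in DMSO. UGGT2, its paralog, had 8.37, 8.30 and 8.44 in YW3-56, against 8.45, 8.25 and 8.34 in DMSO. Both overlapped between groups, although each UGGT1 value in YW3-56 lay above that of the DMSO array with the same number. With replicate number as a block the adjusted p of UGGT1 was 0.0859. The log2 fold changes of UGGT1 and UGGT2 were 0.18 ± 0.08 and 0.02 ± 0.08, and neither passed. Of the prolyl isomerases, which turn peptide bonds at proline, PPIB (cyclophilin B) had 12.98, 13.01 and 13.08 in YW3-56, against 12.79, 12.89 and 12.98 in DMSO (0.14 ± 0.08, adjusted p = 0.289). The lowest treated and the highest control value of PPIB nearly touch. FKBP14 had 9.27, 9.05 and 9.11 in YW3-56, against 9.22, 8.93 and 8.73 in DMSO, and its DMSO replicate 1 lay among the treated values. Without that array FKBP14 differed by 0.32 with an adjusted p of 0.0469.

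Degradation begins with lectins and mannosidases that recognise trimmed sugars. EDEM1, known as a target of XBP1, had 10.50, 10.31 and 10.39 in YW3-56, against 9.77, 9.64 and 9.57 in DMSO, and was 1.68-fold higher (0.75 ± 0.09, adjusted p = 0.000833). EDEM2, the mannosidase of the first trimming step, had 9.57, 9.65 and 9.58 in YW3-56, against 9.29, 9.25 and 9.35 in DMSO (0.30 ± 0.07). EDEM3 had 9.94, 9.96 and 10.00 in YW3-56, against 9.89, 9.61 and 9.86 in DMSO, and its change of 0.18 ± 0.09 did not pass. The change of EDEM1 exceeded that of EDEM2 by 0.44 ± 0.11 and that of EDEM3 by 0.57 ± 0.11.

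OS9 and ERLEC1 are the lectins that deliver substrates to the membrane complex. OS9 had 11.16, 11.00 and 10.98 in YW3-56, against 10.57, 10.62 and 10.70 in DMSO (0.42 ± 0.08, adjusted p = 0.00803). ERLEC1 had 9.71, 9.73 and 9.92 in YW3-56, against 9.48, 9.48 and 9.49 in DMSO (0.30 ± 0.08, adjusted p = 0.0295). Both lay above the controls in every treated array, and their changes differed by 0.11 ± 0.12. The calls of ERLEC1 and EDEM2 each rest on thin margins. Without YW3-56 replicate 2 the adjusted p was 0.0673 for ERLEC1 and 0.0814 for EDEM2, without YW3-56 replicate 3 it was 0.123 and 0.0663, and without DMSO replicate 2 it was 0.0964 and 0.0808. ERLEC1 was also lost without DMSO replicate 3 (0.0626) and with per-gene variance (0.060).

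HERPUD1, a stress-inducible membrane protein that assembles the degradation complex, had the largest change of all members. Its probe set 7995895 gave 12.57, 12.44 and 12.62 in YW3-56, against 10.43, 10.89 and 11.18 in DMSO. The SD was 0.09 in YW3-56 and 0.38 in DMSO, with no overlap, and the gene was 3.27-fold higher (1.71 ± 0.17, adjusted p = 0.000469). HERPUD2, its paralog, had 10.30, 10.19 and 10.23 in YW3-56, against 9.90, 9.92 and 9.84 in DMSO. It rose too, by 0.35 ± 0.07, and the change of HERPUD1 was larger by 1.36 ± 0.24.

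Both genes of the ligase core rose. SEL1L, the adaptor that stabilises the ligase and receives the lectins, had 11.41, 11.07 and 11.10 in YW3-56, against 10.10, 9.94 and 10.20 in DMSO, and was 2.17-fold higher (1.12 ± 0.11). SYVN1, the ubiquitin ligase HRD1, had 11.76, 11.63 and 11.61 in YW3-56, against 10.82, 10.74 and 10.85 in DMSO, and was 1.82-fold higher (0.86 ± 0.08). Neither overlapped with the controls, and both calls were made in all 14 alternative settings.

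Derlins, membrane proteins that help substrates out of the ER, differed in their calls. DERL1 had 12.14, 12.00 and 12.14 in YW3-56, against 12.16, 12.08 and 12.05 in DMSO, with overlapping groups and a change of -0.0039 ± 0.08 (95% interval from -0.18 to 0.17). DERL2 had 11.35, 11.17 and 11.30 in YW3-56, against 10.91, 10.89 and 10.94 in DMSO (0.36 ± 0.08, adjusted p = 0.0116). DERL3 had 8.47, 8.19 and 8.28 in YW3-56, against 7.83, 8.04 and 8.05 in DMSO (0.34 ± 0.10, adjusted p = 0.0459).

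The DERL3 call is the weakest of the list. With replicate number as a block its adjusted p was 0.0647, and leaving out any single array ended the call, with adjusted p of 0.142, 0.0554 and 0.117 without YW3-56 replicates 1, 2 and 3 and of 0.073, 0.0927 and 0.0568 without DMSO replicates 1, 2 and 3. With per-gene variance its adjusted p was 0.135, and its change was 0.19 without both arrays numbered 1. The DERL2 call was lost without YW3-56 replicate 3 (0.0592) and without DMSO replicate 2 (0.0517). SELENOS, a selenoprotein that links derlins to the cytosolic extraction machinery, rose by 0.46 ± 0.08, with YW3-56 values from 8.92 to 9.16 and DMSO values from 8.56 to 8.61.

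The role of ubiquitin conjugation held the member that fell. UBE2G2, a ubiquitin-conjugating enzyme of ERAD, had 9.58, 9.47 and 9.68 in YW3-56, against 10.22, 10.17 and 10.02 in DMSO. All treated arrays lay below all controls, and UBE2G2 was 1.48-fold lower (-0.56 ± 0.09, adjusted p = 0.00306). UBE2J1, the membrane-anchored conjugating enzyme that works with SYVN1, had 11.29, 11.20 and 11.33 in YW3-56, against 10.88, 10.94 and 10.92 in DMSO, a rise of 0.36 ± 0.07. AUP1, the lipid droplet protein that recruits UBE2G2, had 12.37, 12.34 and 12.30 in YW3-56, against 12.48, 12.44 and 12.48 in DMSO. AUP1 lay below the controls in every treated array, but the change of -0.13 ± 0.07 did not pass (adjusted p = 0.229). A trended and robust prior and a per-gene variance each called it lower, with adjusted p of 0.0395 and 0.0432. The change of UBE2J1 exceeded that of UBE2G2 by 0.92 ± 0.07.

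In all, 12 pairs of related genes were compared by the per-array difference of their log2 values. In 10 of them the differences in YW3-56 and DMSO arrays did not overlap, with an exact permutation p of 0.1 (two-sided, adjusted p = 0.12 over the pairs), which is the smallest p that 3 arrays against 3 allow. This permutation test therefore cannot reach 0.05 here, whatever the size of a difference. The pairs of OS9 with ERLEC1 (exact permutation p = 0.5) and DERL3 with DERL2 (exact permutation p = 0.9) overlapped. The remaining pairs were HSPA5 with HSPA13 (0.64 ± 0.14), CALR with CANX (0.42 ± 0.07), DERL3 with DERL1 (0.34 ± 0.12) and UGGT1 with UGGT2 (0.15 ± 0.06). Each of these values is the change of the first gene minus that of the second.

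**Figure D4:**
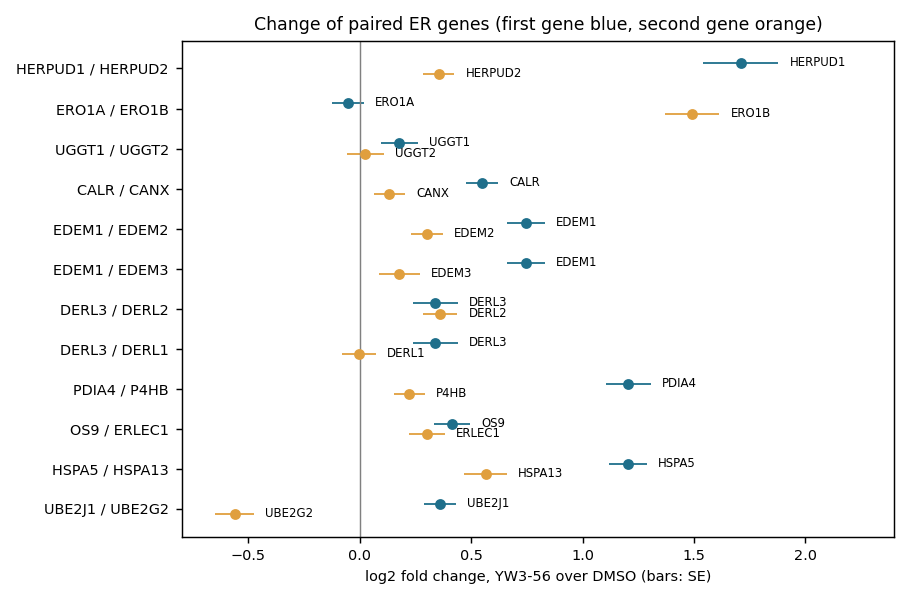
Log2 fold changes, YW3-56 over DMSO, with SE bars (n = 3 arrays per group), for 12 pairs of related members; the first gene of each pair is blue and the second orange. ERO1B and HERPUD1 stand far from their paralogs, and UBE2J1 and UBE2G2 lie on opposite sides of 0.

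A further 55 genes of ER folding and ERAD outside the list were also looked up, of which 53 were analysed here. Of the 53, 12 were called higher, 4 lower and 37 did not pass. The median of their log2 fold changes was 0.05. Their share called higher was 22.6%, against 9.84% of all genes. Without YW3-56 replicate 3, 7 of them were called higher. The largest rises were those of 3 co-chaperones of BiP and of RNF185, a ubiquitin ligase of the ER membrane. DNAJB9 had 10.12, 9.94 and 10.15 in YW3-56, against 7.79, 7.95 and 7.79 in DMSO, DNAJC3 rose by 1.43 ± 0.10, DNAJB11 by 0.74 ± 0.10 and RNF185 by 0.68 ± 0.09.

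Those that fell were ERP27 (-0.58 ± 0.09), a redox-inactive member of the isomerase family, UBE2J2 (-0.41 ± 0.08), a membrane-anchored relative of UBE2J1, TMUB1 (-0.41 ± 0.08), a ubiquitin-like membrane protein, and the membrane thioredoxin TMX1 (-0.31 ± 0.09). VCP, the ATPase that pulls substrates into the cytosol, had 12.25, 12.20 and 12.28 in YW3-56, against 12.07, 12.04 and 11.98 in DMSO. VCP lay above the controls in every treated array, but its change of 0.21 ± 0.07 did not pass (adjusted p = 0.0654). Its adaptors NPLOC4 and UFD1, with changes of 0.15 ± 0.07 and 0.10 ± 0.07, did not pass either. The glucosidase subunits GANAB (0.02 ± 0.07) and PRKCSH (0.0051 ± 0.07) did not pass. Genes of related roles were called higher, the prolyl isomerase PPIC (0.53 ± 0.08), the calnexin relative CLGN (0.34 ± 0.07) and the VCP-binding UBXN4 (0.27 ± 0.07). Also called higher were TMEM129 (0.56 ± 0.07), GPX8 (0.43 ± 0.10), ERP44 (0.41 ± 0.09), DNAJC1 (0.35 ± 0.08) and DNAJB14 (0.31 ± 0.07). The prolyl isomerases FKBP2, FKBP7, FKBP9, FKBP10 and FKBP11 did not pass, nor did UBXN6 and UBXN8, relatives of UBXN4.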

How the data were processed

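Values for 33297 probe sets on 6 arrays were deposited on the log2 scale, made by the authors with RMA and the affy package, per the submitters' processing notes. RMA equalises intensity distributions between arrays, so a shift of all transcripts one way would not be visible. Probe sets with 1 gene symbol (19460) were used, and those with several (1754) or none (12083) were left out. The brightest probe set by mean of the 6 arrays stood for each of 18417 genes.

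YW3-56 was compared with DMSO by limma 3.58.1 in R 4.3.3 (lmFit and eBayes, group as the only term, two-sided, no filter), with 4 residual and 4.17 prior degrees of freedom and Benjamini-Hochberg adjustment over all genes at 0.05. The fit was tested on simulated data. Errors after ± are SE on the log2 scale. For single genes the SE uses the variance moderated by limma. For pair differences it uses the unmoderated pooled variance of the per-array differences. Deviations from group means correlated over genes at 0.539, 0.37 and 0.102 between arrays sharing replicate number 1, 2 and 3 in the labels. YW3-56 replicate 2 correlated better with DMSO replicate 3 (0.416). Whether the numbers pair the arrays is therefore uncertain, and a pairing is clearest for number 1. The reported p-values and SE leave the numbers out, and the blocked fit was kept as an alternative.

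Members, gene lists, pairs, motifs and roles were chosen with earlier results of these data known. All members are named. Array values are given for HSPA5, HERPUD1, the genes of the pairs and the 3 largest changes of each role, and, of the further genes, the 4 largest rises, 2 largest falls, DNAJB9, DNAJC3 and VCP are named by rule. The array values of HSP90B1, HYOU1, SIL1 and MANF and the other further genes were chosen after their values were seen. Alternatives were a second quantile normalization, median centring, a dim-gene filter, the mean of probe sets, a trended and robust prior, per-gene variance, the block and each array left out. Leaving out both arrays numbered 1 was added after seeing the data.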

Additional observations from a re-analysis of the deposited data

How the results depend on the processing

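Of the 25 called members, 21 kept their call in every one of 14 alternative settings, and no member changed direction with a call. The exceptions, DERL3, ERLEC1, EDEM2 and DERL2, are described with their values in the report. Members called higher numbered 20 to 24 when an array was left out and 23 to 26 in the other settings, against 24 as reported. The count of members called lower was 2 with a trended and robust prior and 2 with per-gene variance, where AUP1 joined UBE2G2. With replicate number as a block, 23 members were called higher and DERL3 was the member call that changed. Leaving out 1 array brought the genes called higher among all genes to between 1158 and 2084, those called lower to between 1206 and 2605, and the further ER genes called higher to between 7 and 14. The lowest count of further genes came without YW3-56 replicate 3. Medians of the members stayed between 0.34 and 0.41 in all settings. VCP was called higher in 4 settings, with adjusted p from 0.00594 to 0.0322. DERL3 could not be tested with dim genes left out, since its mean fell below the filter. With 3 arrays per group, the differences of UGGT1 and PPIB missed the threshold in every setting, and that of CANX passed it with a trended and robust prior alone (adjusted p = 0.0239).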
